A study of Mus musculus with 30 samples.

Results

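The genes described here are those of the mouse mitochondrial genome, taken as every gene of the count files whose GENCODE vM21 symbol starts with mt-. The rule finds 37 of 55487 genes, made up of 13 mRNAs, 2 ribosomal RNAs (rRNAs) and 22 transfer RNAs (tRNAs). They were measured by RNA-seq of 23 single embryos obtained by mating *Dis3* heterozygous (het) mice, after hormone stimulation of the females. The embryos were wild-type (n = 6), het (n = 2) and null (n = 4) at E2.5, and wild-type (n = 3), het (n = 5) and null (n = 3) at E2.75. E2.5 and E2.75 are embryonic days of the cleavage stages, when the embryo passes towards the morula. The study also profiled POU6F1 binding in mouse embryonic stem cells by ChIP-seq, which bears on these genes in 1 respect given at the end.

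*Dis3* encodes a ribonuclease that works with the RNA exosome in the nucleus and the cytoplasm. The null allele lacks exons 3 to 5 after CRISPR-Cas9 cutting and an imprecise repair. All 3 genotypes came from het parents, so each embryo, wild-type ones included, grew from an egg of a het female. Which knockout line, mother or litter an embryo came from is not given in the sources used here. The genotype of each embryo was read from its own DNA, and its library was made from RNA selected by the A tail, with ERCC spike-in RNA added to the lysate. p-values below therefore measure the spread between single embryos.

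The mitochondrial genome is a small circle inherited through the egg. Both of its strands are transcribed into long precursors, and the tRNAs that lie between most of the other genes are cut out, which frees the mRNAs and rRNAs. The mRNAs encode subunits of respiratory complexes I, III, IV and V, the mature mRNAs and rRNAs mostly carry A tails, and mature tRNAs carry none but end in CCA. The preimplantation mouse embryo lives on the mitochondria of the egg, and replication of the mitochondrial DNA is largely silent until about implantation. Decay of mitochondrial RNA is carried out inside the organelle by the helicase SUPV3L1 and the phosphorylase PNPT1, not by the exosome.

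On GRCm38 the mitochondrial chromosome holds 16299 bases. By annotated strand, 12 mRNAs, both rRNAs and 14 tRNAs lie on the plus strand, and mt-Nd6 and 8 tRNAs lie on the minus strand. The reads were counted without regard to strand, so RNA of a gene and RNA of the opposite strand over it cannot be told apart. Some neighbours overlap, among them mt-Atp8 and mt-Atp6 by 43 bases, mt-Nd5 and mt-Nd6 by 14 bases and mt-Nd4l and mt-Nd4 by 7 bases. A read was counted for a gene only where it lay wholly inside that gene, so a read that crossed from a tRNA into the neighbouring mRNA counted for neither.

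The sequences below, read from GRCm38 and printed 5′ to 3′ on the strand of the gene, are those on which the results turn. The first set holds the tRNA genes whose levels differed between the stages of wild-type embryos on the CPM scale (counts scaled to the same library size), and mt-Td, a tRNA gene with no count in any embryo. Capitals mark the anticodon where a script could place it. mt-Tm (tRNA for methionine, chrM:3845-3913), mt-Tv (valine, chrM:1025-1093) and mt-Tt (threonine, chrM:15289-15355) lie on the plus strand, mt-Tq (glutamine, chrM:3772-3842) on the minus strand, and mt-Td (aspartic acid, chrM:6942-7011) on the plus strand.
mt-Tm: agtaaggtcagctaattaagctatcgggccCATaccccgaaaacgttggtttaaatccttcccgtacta
mt-Tv: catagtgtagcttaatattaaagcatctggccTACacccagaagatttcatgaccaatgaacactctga
mt-Tt: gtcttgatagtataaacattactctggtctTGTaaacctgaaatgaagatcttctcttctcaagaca
mt-Tq: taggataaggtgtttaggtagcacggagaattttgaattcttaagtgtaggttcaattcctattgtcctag
mt-Td: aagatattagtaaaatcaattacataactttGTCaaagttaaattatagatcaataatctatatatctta

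The second set shows what the A tail does to a mitochondrial message. In 3 of the 13 mRNAs (mt-Co3, mt-Nd4 and mt-Cytb), the annotated gene ends inside the stop codon, and the tail completes it to TAA. The last 24 bases of mt-Nd4 (chrM:11521-11544) and mt-Cytb (chrM:15265-15288), both on the plus strand, end in the T in capitals, to which the tail is joined.
mt-Nd4: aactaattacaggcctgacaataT
mt-Cytb: acaaaatactaaaattatatccaT

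The third set shows stretches that genes with few counts share with the nuclear genome. Pieces of the mitochondrial genome have been copied into nuclear chromosomes, and a read from a stretch that is identical in both genomes cannot be assigned to 1 of them. The longest copy in GRCm38 covers mitochondrial bases 6390 to 11042 and lies on chr1:24611535-24616188 (minus strand), 4654 aligned bases at 99.936% identity with 2 mismatches. The first 60 bases of mt-Co2 (chrM:7013-7072, plus strand) are identical to the copy at chr1:24615506-24615565 (minus strand). The bases around the start of mt-Nd3 (chrM:9446-9475, plus strand) differ from chr1:24613103-24613132 (minus strand) at the position in capitals.
mt-Co2 start: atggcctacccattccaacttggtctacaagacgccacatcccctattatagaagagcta
mt-Co2 start copy: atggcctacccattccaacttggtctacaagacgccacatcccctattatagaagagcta
mt-Nd3 start: ccagaagagagtaatTaacctgtacactgt
mt-Nd3 start copy: ccagaagagagtaatCaacctgtacactgt

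In substitutions counted along the mitochondrial chromosome, with the mitochondrial base first, the longest copy has A6393T, inside mt-Co1, and T9461C, inside mt-Nd3. It also has 1 extra base beside position 9829 in mt-Tr, the tRNA gene for arginine. Further long copies lie on chr2:22587288-22590534 (minus strand, mitochondrial bases 4441 to 7699, 97.362% identity) and chr4:80002330-80005204 (plus strand, bases 12488 to 15359, 93.009% identity). In all, 43.175% of the 50-base words of the mitochondrial chromosome occur in the nuclear chromosomes with at most 1 mismatch. The share of a gene's 50-base words that occur only on the mitochondrial chromosome is called its unique share here. The read length is not given in the sources used here, so this share describes the sequence and not the exact loss of reads.

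The 6 mRNAs with a unique share of 0 all lie inside the longest copy and were almost absent from the counts, at 0 to 12 per embryo and 192 over the 23 embryos together. They are mt-Co2 and mt-Co3 (cytochrome c oxidase subunits, 10 and 16 counts in all), mt-Atp8 and mt-Atp6 (ATP synthase subunits, 25 and 127 counts), and mt-Nd3 and mt-Nd4l (complex I subunits, 12 and 2 counts). The 7 other mRNAs had 979 to 470373 counts per embryo. These low counts are no measure of how much of the 6 messages the embryos held, and they are not compared between groups except where stated. Of the 6, only mt-Atp6 passed the low-count filter, in the fit of E2.5 alone and in those that compare the stages. It is among the tested mRNAs there. Among tRNAs, the 9 genes with no unique word (mt-Tw, mt-Tn, mt-Ty, mt-Ts1, mt-Td, mt-Tk, mt-Tg, mt-Th and mt-Te) were at 0 in every embryo. The 13 others had 0 to 1790 counts per embryo. Among them mt-Tr had 2 counts in all and mt-Ts2 95, each with a unique share of 100%. mt-Tr lies inside the longest copy, and its share rests on the 1 extra base there. A gap made a word unique, whereas 1 mismatch did not. The part of the shared stretches in the low counts was not tested. A count of 0 allows up to 3 counts in a library, which is 0.193 to 1.53 CPM here. The plot of unique share and counts by gene shows both patterns along the chromosome.

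**Figure D1:**
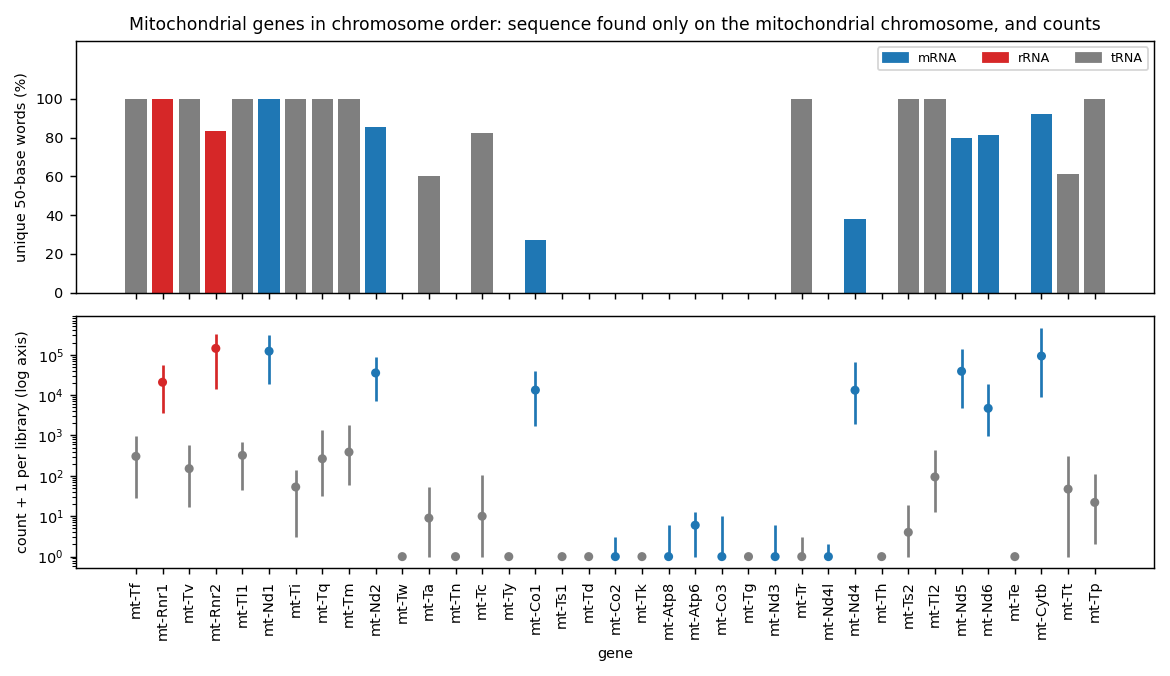
Genes are in chromosome order on the x axis. The upper bars give the unique share of each gene (percent of 50-base words), and the lower panel gives the lowest to highest count + 1 per library (log axis) with the median as a point, over 23 embryos. The 6 mRNAs with a unique share of 0 stay at or under 12 counts, while mt-Nd1, with a share of 100, has 18668 to 314294.

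The annotated pseudogenes inside the nuclear copies gave a measure of what was assigned there. Of 7 pseudogenes in the chromosome 1 copy, Gm28438 (ENSMUSG00000101939, chr1:24612775-24613119, minus strand), the copy of mt-Nd3, held 25511 of 25847 counts, against 12 counts for mt-Nd3 itself. It had 183 to 2266 counts per embryo. Its level was 109 to 203 CPM (median 152) in the 6 wild-type and 77.8 to 310.1 CPM (median 199) in the 4 null embryos at E2.5. At E2.75, the medians were 112 CPM in wild-type, 129.6 CPM in het and 100.01 CPM in null embryos. The 6 other pseudogenes of that copy had 22 to 119 counts in all, the 3 in the chromosome 2 copy 649 and the 3 in the chromosome 4 copy 448. Whether the Gm28438 reads came from the nuclear gene or from mitochondrial RNA was not tested.

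Depth ranged from 1690192 to 14015980 gene counts per embryo (median 8030848), with 1914128 and 1690192 in null replicates 1 and 2 at E2.75. Gene counts were lower in null than in wild-type embryos, with a ratio of 0.516 (exact permutation p = 0.033, n = 7 and 9), or 0.536 (exact permutation p = 0.055) without wild-type replicate 6 of E2.5. Against het embryos the ratio was 0.540 (exact permutation p = 0.082, n = 7 and 7) and 0.468 within stages (exact permutation p = 0.036), and the part of depth in the results below was not tested. *Dis3* itself was at 0 to 21.4 CPM (median 12.8) in null, 30.3 to 58.9 CPM (median 43.6) in het and 18.0 to 146 CPM (median 106) in wild-type embryos. Wild-type replicate 6 at E2.5, by its label, had the lowest *Dis3* level of its group (18.0 CPM), among the values of null embryos. Tests of mitochondrial genes, per-length levels and nuclear counts per ERCC count that rest on wild-type embryos are therefore also given without it. On the CPM scale, *Dis3* was lower in null than in het embryos (log2 fold change -2.06 ± 0.53, SE, adjusted p = 0.025, edgeR's quasi-likelihood test) and than in wild-type embryos (-3.01 ± 0.54, adjusted p = 0.00094). Reads that the counting assigned to no gene, which include those only partly inside one, made up 32.3% to 43.9% in null and 20.99% to 33.4% in the other embryos, and their part in the results below was not tested. Markers of the preimplantation embryo such as *Pou5f1* (265 to 1568 CPM) and *Dppa5a* were counted in all 23 embryos, but *Sox2* was at 0 in 11 of them. *Cdx2* was counted in 20 embryos and *Krt18* in 22. Of 13 markers of follicle, oviduct and blood cells, *Ptx3*, *Inha*, *Cyp11a1*, *Foxj1* and *Hbb-bs* were at 0 in every embryo. The others were each counted in at least 1 embryo, among them *Star* in 20, *Ovgp1* in 15 and *Hba-a1* in 12. The highest level was that of *Star*, at 24.1 CPM.

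The 13 mRNAs together took 1.77% to 8.82% of the gene counts of an embryo (median 4.22%), the rRNAs 1.07% to 5.10% (median 2.43%) and the tRNAs 0.0115% to 0.0515% (median 0.0231%). The widest 95% interval (Wilson) of these shares was 0.0529 percentage points, and it covers counting error only. The class sums thus varied between embryos of the same group far more than counting error. Since mature tRNAs have no A tail, the method is not made to catch them, and the tRNA counts may include precursors as well as mature molecules, which the counts do not separate.

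Levels of different genes are compared here per length, as TMM-normalized CPM per kilobase over the 9 wild-type embryos. mt-Nd1 (complex I) was highest at 19505 ± 6052 (SD, n = 9), followed by mt-Rnr2, the large-subunit rRNA, at 15360 ± 7710 and mt-Cytb, the cytochrome b of complex III, at 14692 ± 9100. These 3 neighbours in the order lie within their spread. mt-Nd2 (complex I) came next at 5097 ± 1031, and mt-Rnr1, the small-subunit rRNA, stood at 3788 ± 2253. mt-Nd5 was at 3271 ± 1275, mt-Co1, the catalytic subunit of cytochrome c oxidase, at 1728 ± 701, mt-Nd6 at 1677 ± 877 and mt-Nd4 at 1544 ± 974, the last 3 also within their spread. Leaving out E2.5 wild-type replicate 6 put mt-Co1 at 1834 ± 669 (SD, n = 8), mt-Nd6 at 1750 ± 908 and mt-Nd4 at 1634 ± 1001. The lower part of the order differed between the stages. At E2.5 mt-Nd6 (2076 ± 807, SD, n = 6) and mt-Nd4 (1696 ± 1166) had higher means than mt-Co1 (1313 ± 405). At E2.75 mt-Co1 (2559 ± 75.8, SD, n = 3) stood above mt-Nd4 (1241 ± 435) and mt-Nd6 (878 ± 118), in each of the 3 embryos. mt-Nd1 had the highest mean at both stages, 22019 ± 5496 and 14476 ± 3753. The bases that nuclear copies share change this order as well. Per 1000 unique 50-base words, mt-Co1, whose unique share is 27.3%, stood at 6527 ± 2650 CPM and mt-Nd4 (37.8%) at 4239 ± 2674 CPM, whereas mt-Nd1 stood at 20557 ± 6379 CPM. The plot of class sums shows the values of each embryo.

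**Figure D2:**
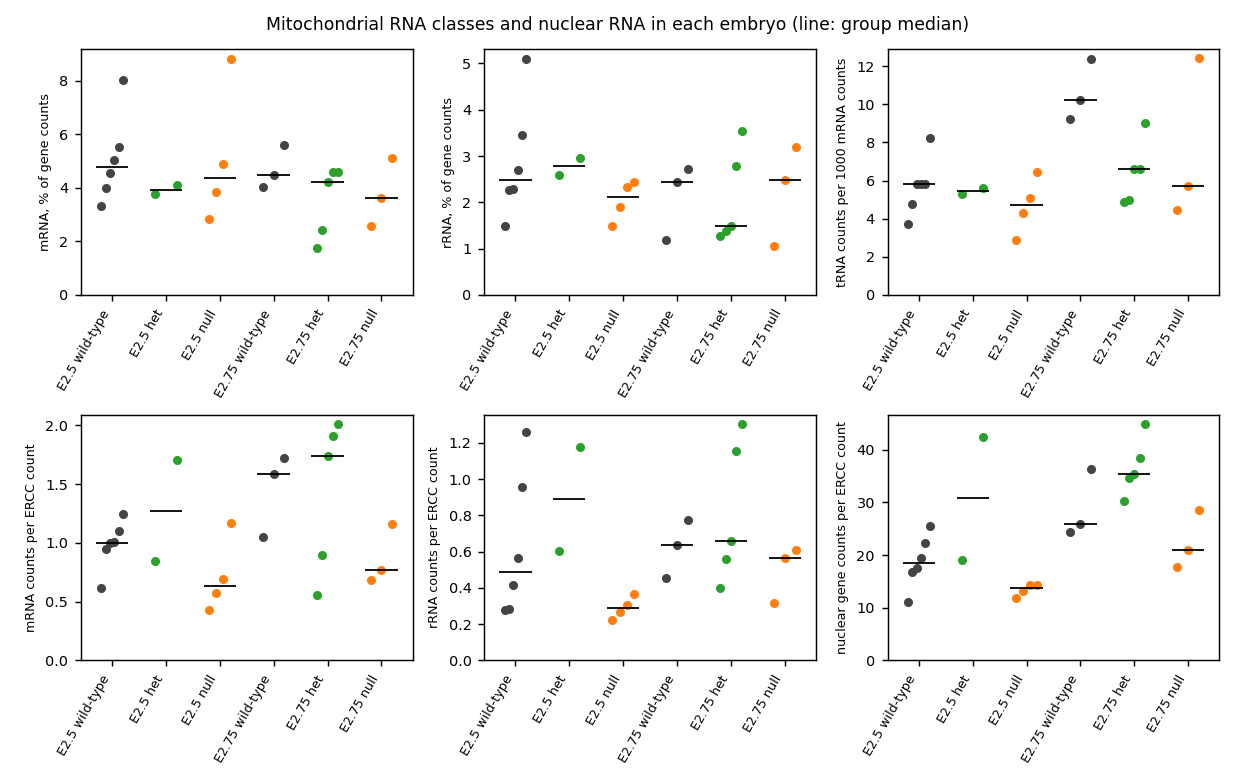
Each point is 1 embryo, grouped on the x axis by stage and genotype, with a line at the group median. The panels give the mitochondrial mRNA, rRNA and tRNA sums and nuclear gene counts on the scales named on their y axes. The mRNA sums as a percent of gene counts overlap between all groups, from 1.77% to 8.82%.

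The comparison of genotypes asks whether mitochondrial RNAs differed where DIS3 was absent, first relative to the other RNAs of the embryo (CPM scale). With the stages merged by genotype, 0 of 9 tested mRNAs and rRNAs and 0 of 11 tested tRNAs passed the test in null against het embryos, where a pass is an adjusted p under 0.1 by edgeR's quasi-likelihood test. Over all 13415 genes tested, 2.38% were lower and 4.1% higher. At an unadjusted p under 0.05 the count of mitochondrial genes was also 0, and DESeq2 called 0. The 7 mRNAs had a median log2 difference of 0.25 and ranged from -0.11 for mt-Co1 to 0.87 ± 0.43 (SE, adjusted p = 0.30) for mt-Cytb. The rRNAs lay at -0.12 (mt-Rnr1) and 0.02 (mt-Rnr2). The median over nuclear genes was 0.02.

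Values of single embryos overlapped widely on the CPM scale. mt-Rnr2 (ENSMUSG00000064339, chrM:1094-2675) had 7412 to 24705 CPM (median 19755) in null and 9499 to 29182 CPM (median 21547) in het embryos. In wild-type embryos it had 7872 to 49911 CPM (median 24548). mt-Nd6 (ENSMUSG00000064368, chrM:13552-14070), the only mRNA on the minus strand, had 499.5 to 892 CPM (median 648) in null and 326 to 944 CPM (median 544) in het embryos. Its wild-type embryos ran from 398 to 1654 CPM (median 785). For both genes the range of null embryos lay almost wholly inside the ranges of the others.

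Null against wild-type embryos gave the same count on the CPM scale, with 0 of 9 mRNAs and rRNAs and 0 of 11 tRNAs past the test (background 2% lower and 3.88% higher), and 0 by DESeq2. At an unadjusted p under 0.05, mt-Co1 (-0.77 ± 0.33, SE, adjusted p = 0.25) and mt-Tv (-0.82 ± 0.40, adjusted p = 0.33) were counted. Both comparisons use the same null embryos. Without a filter on low counts, mt-Co1 passed (-0.86, adjusted p = 0.092), and so did mt-Nd3 in the other direction (adjusted p = 0.063), named after its values were seen. mt-Nd3 was at 0 in every wild-type embryo and had 5 and 2 counts in null replicates 2 and 4 of E2.5, so no fold is given. In het against wild-type embryos, 0 genes of the whole table passed (0% in each direction), DESeq2 called 0 mitochondrial genes, and 2 mRNAs and 5 tRNAs had an unadjusted p under 0.05, all lower in het, with mt-Nd2 at -0.40 and mt-Cytb at -0.88. The counts of both comparisons with wild-type embryos stayed at 0 without wild-type replicate 6 of E2.5.

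The second scale sets counts against the ERCC spike-ins, so that it keeps a difference in total RNA. On this scale fewer cells in an embryo, less RNA per cell and fewer reads assigned to genes cannot be told apart. Reads assigned to no gene are left out of these counts. Their median share was 39.5% in null, 25.9% in het and 24.3% in wild-type embryos. Nuclear gene counts per ERCC count were 11.8 to 28.6 (median 14.3) in null, 19.1 to 45.0 (median 35.5) in het and 11.2 to 36.4 (median 22.2) in wild-type embryos. The ratio of null to het was 0.486 (two-sided exact permutation test, n = 7 and 7, p = 0.0023), and 0.540 within stages (exact permutation p = 0.0012). The ratio of null to wild-type was 0.781 (exact permutation p = 0.15, n = 7 and 9) and 0.747 within stages (p = 0.025, exact permutation). Het embryos were above wild-type, with a ratio of 1.61 (exact permutation p = 0.010, n = 7 and 9) and 1.42 within stages (exact permutation p = 0.036). Without wild-type replicate 6 of E2.5, the ratio of null to wild-type was 0.764 (exact permutation p = 0.14, n = 7 and 8) and 0.745 within stages (exact permutation p = 0.033). That of het to wild-type was then 1.57 (exact permutation p = 0.018) and 1.40 within stages (exact permutation p = 0.052).

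The mitochondrial mRNA sum per ERCC count was 0.425 to 1.17 (median 0.691) in null, 0.553 to 2.01 (median 1.71) in het and 0.611 to 1.73 (median 1.05) in wild-type embryos. The rRNA sum per ERCC count was 0.225 to 0.607 (median 0.317) in null, 0.4004 to 1.30 (median 0.657) in het and 0.276 to 1.26 (median 0.564) in wild-type embryos. The groups overlap on both sums, with the medians of null embryos lowest.

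The merged groups differ in stage, with 4 of 7 null but 2 of 7 het embryos at E2.5. Relative to ERCC, the nuclear median was 0.97 (null) and 0.54 (het) higher at E2.75 than at E2.5. The merged medians and log2 differences below thus mix stage with genotype. Gene by gene, 8 of 9 mRNAs and rRNAs were lower in null than in het embryos relative to ERCC, against 39.8% of all genes tested (2.15% were higher). With stage added to the fit, the count was also 8. With a log2 fold change beyond 1 also required, mt-Rnr1, mt-Rnr2, mt-Co1 and mt-Nd5 remained, 4 of 9, against 33.4% of all genes. The median log2 difference was -0.93 over the 7 mRNAs, -1.16 over the 2 rRNAs and -0.89 over the 11 tested tRNAs, beside -1.08 over nuclear genes. The share of mRNAs and rRNAs that passed was thus above that of all genes, while the median of the mRNAs was no further below 0 than that of nuclear genes. These 9 genes had at least 979 counts in every embryo, and the part of this depth in their share was not tested. They come from long precursors, so they are not independent of one another.

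Both rRNAs were lower. mt-Rnr2 had 199 to 499 counts per 1000 ERCC counts (median 291) in null and 338 to 1093 (median 562) in het embryos, a log2 difference of -1.14 ± 0.33 (SE, adjusted p = 0.016). mt-Rnr1 (ENSMUSG00000064337, chrM:70-1024) had 17.1 to 109 (median 31.3) in null and 43.3 to 209 (median 128) in het embryos, a log2 difference of -1.19 ± 0.50 (adjusted p = 0.072). For both genes the ranges overlapped, with the highest null embryo inside the het range. By stage, the mt-Rnr2 medians were 264 in null and 812 in het embryos at E2.5, and 462 and 528 at E2.75. Those of mt-Rnr1 were 27.5 and 81.1 at E2.5, and 103 and 132 at E2.75.

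Of the complex I messages, mt-Nd1 (ENSMUSG00000064341, chrM:2751-3707) had 134 to 487 counts per 1000 ERCC counts (median 256) in null and 218 to 849 (median 678) in het embryos. Its log2 difference was -0.93 ± 0.32 (SE, adjusted p = 0.033). mt-Nd2 (ENSMUSG00000064345, chrM:3914-4951) had 51.4 to 155 (median 67.8) and 87.2 to 218 (median 172), with a log2 difference of -0.86 ± 0.33 (adjusted p = 0.049). With the stages merged, the median null embryo lay below every het embryo for mt-Nd2 but not for mt-Nd1. The highest null embryo lay inside the het range for both. By stage, the mt-Nd2 medians were 57.4 in null and 130 in het embryos at E2.5, and 123 and 203 at E2.75. Those of mt-Nd1 were 233 and 487 at E2.5, and 328 and 703 at E2.75.

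mt-Nd4 (ENSMUSG00000064363, chrM:10167-11544) had 18.8 to 50.001 counts per 1000 ERCC counts (median 33.3) in null and 33.1 to 81.3 (median 70.2) in het embryos, a log2 difference of -0.82 ± 0.30 (SE, adjusted p = 0.043). mt-Nd5 (ENSMUSG00000064367, chrM:11742-13565) had 51.2 to 165 (median 74.7) and 41.5 to 265 (median 193), a log2 difference of -1.05 ± 0.35 (adjusted p = 0.028). mt-Nd6, a complex I gene annotated on the other strand, had 8.23 to 17.2 (median 10.5) and 11.6 to 42.9 (median 22.3). Its log2 difference was -0.95 ± 0.29 (adjusted p = 0.020), on counts that include any RNA of the opposite strand. The lowest embryo of mt-Nd5 was a het embryo, and the groups overlapped for each of the 3 genes.

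mt-Co1 (ENSMUSG00000064351, chrM:5328-6872) had 8.50 to 57.9 counts per 1000 ERCC counts (median 24.9) in null and 17.3 to 140.0 (median 70.2) in het embryos, a log2 difference of -1.32 ± 0.52 (SE, adjusted p = 0.055). mt-Cytb (ENSMUSG00000064370, chrM:14145-15288) was the 1 tested mRNA that did not pass, and its values are given for that reason, after they were seen. It had 149 to 535 (median 215) in null and 123 to 496 (median 435) in het embryos, a log2 difference of -0.48 ± 0.32 (adjusted p = 0.24). The lowest embryo was het and the highest null.

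Of the 11 tested tRNAs, 2 were lower in null than in het embryos relative to ERCC, a share below the 39.8% of all genes. mt-Tv had 0.173 to 0.842 counts per 1000 ERCC counts (median 0.185) in null and 0.352 to 1.27 (median 1.01) in het embryos, a log2 difference of -1.39 ± 0.57 (SE, adjusted p = 0.063). mt-Tl1, a tRNA for leucine (chrM:2676-2750), had 0.489 to 0.909 (median 0.529) and 0.350 to 2.46 (median 1.02), a log2 difference of -0.89 ± 0.37 (adjusted p = 0.070). The 9 other tRNAs had log2 differences below 0 as well, from -1.29 (mt-Tc) to -0.48 (mt-Tp), and did not pass. mt-Rnr2, mt-Nd1, mt-Nd2, mt-Nd4, mt-Nd5 and mt-Nd6 passed whichever of the 23 embryos was left out, whereas mt-Rnr1 was lost in 8 of these fits, mt-Co1 in 3, mt-Tv in 6 and mt-Tl1 in 7.

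Null against wild-type embryos gave 0 passes relative to ERCC over the same 9 and 11 genes (background 4.36% lower and 2.38% higher), with 4 mRNAs and rRNAs and 6 tRNAs at an unadjusted p under 0.05. The median log2 difference was -0.52 over mRNAs, -0.74 over rRNAs and -0.93 over tRNAs, beside -0.37 over nuclear genes. mt-Co1 had 23.3 to 176 counts per 1000 ERCC counts (median 52.4) in wild-type embryos, and its log2 difference was -1.30 (adjusted p = 0.15). DESeq2 with ERCC totals called mt-Co1 and 6 tRNAs lower (mt-Tv, mt-Ti, mt-Tq, mt-Ta, mt-Tc and mt-Tt), so this count rests on the tool. By DESeq2, 7.66% of 18947 genes were lower and 4.53% higher, and the percentages above are those of edgeR. Het against wild-type embryos gave 0 passes by edgeR's quasi-likelihood test (0 at an unadjusted p under 0.05, 0 by DESeq2, background 0% in each direction), with a median of 0.35 over mRNAs and 0.71 over nuclear genes. By edgeR's test, the counts of both comparisons with wild-type embryos stayed at 0 without wild-type replicate 6 of E2.5. The 3 comparisons share embryos, and the plot of log2 fold changes by genotype sets the mRNAs and rRNAs side by side.

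**Figure D3:**
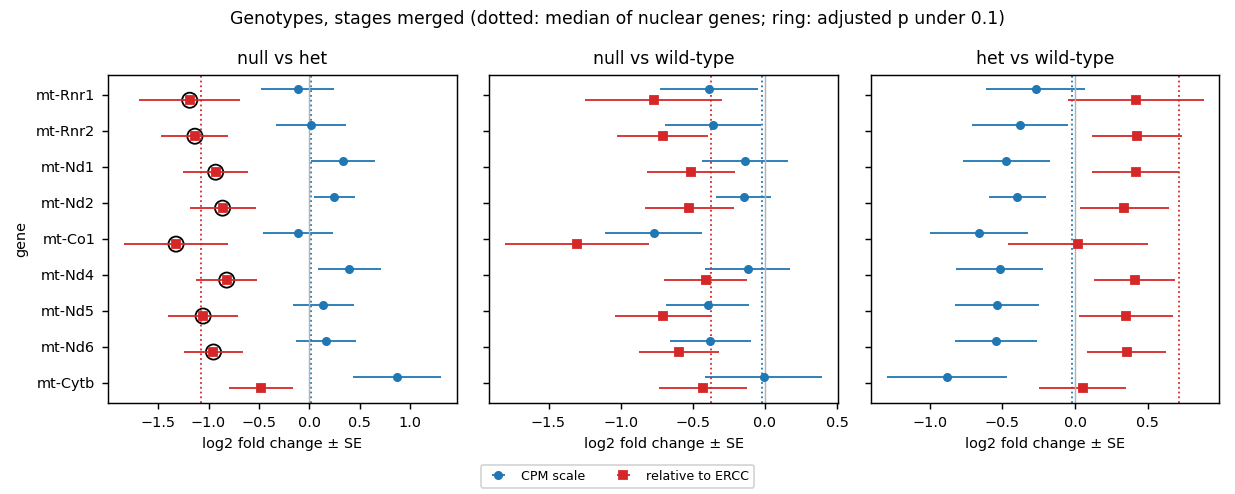
Log2 fold change ± SE (x axis) of the 9 tested mRNAs and rRNAs (y axis) with stages merged, 1 panel per comparison, on the CPM scale and relative to ERCC. Dotted lines mark the median of nuclear genes on each scale and rings an adjusted p under 0.1. In null against het, mt-Rnr2 sits at 0.02 on the CPM scale and at -1.14 relative to ERCC.

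Separate fits were made for each stage. At E2.5, with only 2 het embryos, mt-Nd2 (-1.15, adjusted p = 0.075), mt-Nd5 (-1.45, adjusted p = 0.065), mt-Nd6 (-1.73, adjusted p = 0.064), mt-Rnr2 (-1.61, adjusted p = 0.082) and mt-Tq (-1.58, adjusted p = 0.099) were lower in null than in het embryos relative to ERCC. The background was 12.1% lower and 0.245% higher of 15904 genes. The mRNA and rRNA count of 4 fell to 0 without het replicate 1 or null replicate 2, 3 or 4, and rose to 8 without het replicate 2. At E2.75, 0 of 9 mRNAs and rRNAs and 0 of 9 tRNAs passed (background 16.6% lower and 2.29% higher of 14442 genes, 0 at an unadjusted p under 0.05), and 4 passed without E2.75 het replicate 3, namely mt-Rnr1, mt-Nd1, mt-Co1 and mt-Cytb. Null against wild-type at E2.75 gave mt-Co1 (-1.63, adjusted p = 0.098), mt-Tv (-1.77, adjusted p = 0.071) and mt-Tm (-1.64, adjusted p = 0.080) as lower, against 5.19% of all genes lower and 1.25% higher. At E2.5 the same comparison gave 0 (8 at an unadjusted p under 0.05), against 0.245% lower and 0.327% higher. Het against wild-type gave 0 at both stages, with at most 0.00692% of all genes in either direction. The call of mt-Co1 at E2.75 was lost in 9 of 11 fits that left out 1 embryo.

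On the CPM scale, 0 mitochondrial genes passed at either stage in any of the 3 comparisons. The background at E2.5 was 0.0126% lower and 0% higher for null against het and 0.478% lower and 1.38% higher for null against wild-type. At E2.75 it was 2.46% lower and 2.62% higher for null against het and 2.46% lower and 2.24% higher for null against wild-type. In het against wild-type it was 0% in each direction at both stages. At an unadjusted p under 0.05, 5 mitochondrial genes were lower in null than in wild-type embryos at E2.5 and 3 at E2.75, and 0 differed between null and het embryos at either stage. Between het and wild-type embryos this count was 0 at E2.5, and 2 mRNAs and rRNAs and 3 tRNAs were lower in het embryos at E2.75. At E2.5, the 0 passes against wild-type embryos on both scales also stood without wild-type replicate 6. Whether genotype effects differed between the stages was asked by an interaction test over 18677 genes. For null against het and null against wild-type, 0 mitochondrial genes passed on both scales, 0 of all genes passed as well, and 5 gene and scale combinations of mitochondrial genes had an unadjusted p under 0.05. A difference between the stages in the response to genotype was thus not detected.

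The nuclear genes whose products make, process and remove mitochondrial RNA were followed as a list of 44, of which 42 were tested. On the CPM scale, 0 were lower and 1 was higher in null than in het embryos (2.38% and 4.1% of all genes), *Mterf3*, which encodes a repressor of mitochondrial transcription (1.01, adjusted p = 0.026). Relative to ERCC its difference was -0.26 ± 0.32 (SE, adjusted p = 0.52), beside -1.08 over nuclear genes, and it did not pass. In null against wild-type and het against wild-type, 0 passed on either scale.

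Relative to ERCC, 25 of the 42 were lower in null than in het embryos and 0 higher (39.8% and 2.15% of all genes), with a median log2 difference of -1.37, beside -1.08 over nuclear genes. For transcription and its upkeep these included *Polrmt*, the mitochondrial RNA polymerase (-1.41, adjusted p = 0.089), *Tfam*, which packages the DNA and starts transcription (-0.96, adjusted p = 0.092), and *Gabpa*, a nuclear factor that acts on such genes (-1.11, adjusted p = 0.0058). Among genes for processing, *Trmt10c* and *Hsd17b10*, subunits of the RNase P that frees the 5′ ends of tRNAs, stood at -0.97 (adjusted p = 0.022) and -1.71 (adjusted p = 0.0085). The other RNase P subunit on the list, 1110008L16Rik (*Prorp*), did not pass (-0.41, adjusted p = 0.50). *Lrpprc* and *Slirp*, whose products bind together to mRNAs and keep them stable, stood at -1.52 (adjusted p = 0.016) and -1.17 (adjusted p = 0.0080).

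For decay, *Supv3l1* stood at -1.82 (adjusted p = 0.021), *Pnpt1* at -1.90 (adjusted p = 0.037) and *Rexo2*, which clears short RNA fragments, at -1.75 (adjusted p = 0.010). *Mtpap* (-0.60, adjusted p = 0.27) and *Pde12* (0.10, adjusted p = 0.93) of the same list did not pass. *Polg*, the DNA polymerase of the organelle, stood at -2.14 (adjusted p = 0.045). On the CPM scale the same genes gave 0.12 for *Tfam*, -0.47 for *Polrmt*, -0.54 for *Lrpprc* (adjusted p = 0.26), -0.65 for *Supv3l1* (adjusted p = 0.40) and -1.02 for *Pnpt1* (adjusted p = 0.37). The calls of the list thus stand on the ERCC scale, on which the nuclear median was also lower.

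Between E2.5 and E2.75, single mitochondrial genes of wild-type embryos differed in opposite directions on the CPM scale, among them mt-Nd6, which was lower at E2.75, and mt-Tm, which was higher. Of 10 tested mRNAs and rRNAs, 1 was lower and 0 higher, and of 12 tRNAs, 2 were lower and 2 higher, against 4.67% lower and 3.94% higher of 18677 genes. The 10 include mt-Atp6, which had at most 12 counts per embryo. mt-Nd6 had 567.5 to 1654 CPM (median 979) in the 6 embryos of E2.5, and in the 3 at E2.75 its levels were 398, 449 and 520.1 CPM. Every E2.75 embryo lay below every E2.5 embryo, with a log2 difference of -1.24 ± 0.28 (SE, adjusted p = 0.011, edgeR's quasi-likelihood test). Leaving out any 1 of the 23 embryos kept this call (adjusted p from 0.0031 to 0.070).

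mt-Tm had 31.6 to 62.6 CPM (median 49.5) at E2.5, and the 3 embryos of E2.75 had 158, 172 and 181 CPM, a log2 difference of 1.76 ± 0.39 (SE, adjusted p = 0.0099). mt-Tv had 13.3 to 29.1 CPM (median 20.0) and 36.4, 63.3 and 63.6 CPM, a log2 difference of 1.46 ± 0.43 (adjusted p = 0.050). In both genes the stages did not overlap. In the genome, mt-Tm (its sequence is printed above) lies directly before mt-Nd2, and mt-Tv lies between the rRNA genes. The call of mt-Tm held whichever embryo was left out, and that of mt-Tv was lost in 2 of 23 fits.

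mt-Tq had 41.9 to 111 CPM (median 70.8) at E2.5, and the 3 embryos of E2.75 had 27.3, 27.5 and 28.3 CPM, a log2 difference of -1.45 ± 0.42 (SE, adjusted p = 0.044). mt-Tt had 10.6 to 54.6 CPM (median 24.7) and 2.12, 2.77 and 4.77 CPM, a log2 difference of -3.12 ± 0.86 (adjusted p = 0.035), on 18 to 25 counts per embryo at E2.75. Again the stages did not overlap. These 2 calls were lost in 3 and 2 of the 23 fits that left out 1 embryo, each time an E2.75 wild-type embryo. Without E2.75 wild-type replicate 2, only mt-Nd6 and mt-Tm passed on the CPM scale. Without wild-type replicate 6 of E2.5, the count of mRNAs and rRNAs that were lower was 2, that of tRNAs 3, and that of tRNAs that were higher 2.

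mt-Co1 did not pass on the CPM scale (0.96 ± 0.38, SE, adjusted p = 0.15), although its 1363 to 3110 CPM at E2.5 (median 1834) lay below its 3827, 3974 and 4059 CPM at E2.75. mt-Rnr2 stood at -1.02 (adjusted p = 0.13). By annotated strand, mt-Nd6 and all 4 tested minus-strand tRNAs (mt-Ta, mt-Tc, mt-Tp and mt-Tq) had differences below 0. They ran from -3.53 to -1.24 on the CPM scale and from -2.78 to -0.25 relative to ERCC. The counting ignored strand, so these values do not measure minus-strand RNA alone. Of the plus-strand genes, 6 of 9 mRNAs and rRNAs and 4 of 8 tRNAs lay below 0 on the CPM scale, and 1 of 9 and 2 of 8 relative to ERCC. The near-absent mt-Atp6 is among these 9. Of the 5 minus-strand genes only mt-Nd6 and mt-Tq passed, and mt-Ta, mt-Tc and mt-Tp are thinly counted. In het embryos all 5 lay below 0 on both scales, with mt-Nd6 at -0.96 and the tRNAs from -1.77 to -0.75 on the CPM scale. In null embryos mt-Nd6 and 3 of the 4 tRNAs lay below 0 on the CPM scale, from -2.25 to 0.12 over the tRNAs, whereas relative to ERCC mt-Nd6 (0.82) and 2 of the 4 tRNAs lay above 0. None of these het and null values passed.

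**Figure D4:**
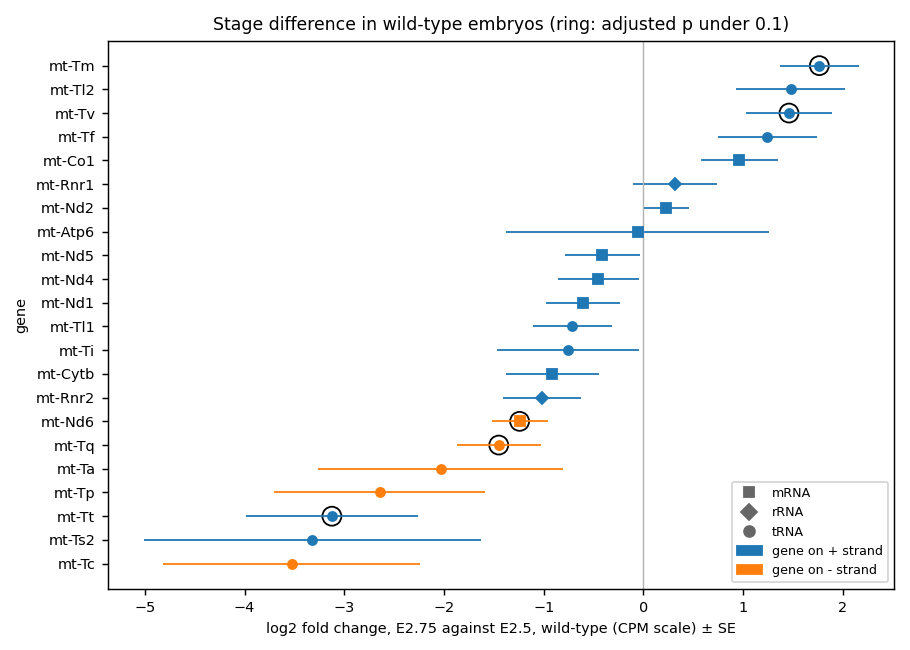
Log2 fold change ± SE on the CPM scale (x axis) of each tested mitochondrial gene (y axis), E2.75 against E2.5 in wild-type embryos, coloured by annotated strand, with the marker for the class and rings for an adjusted p under 0.1. mt-Tm sits at 1.76 and mt-Nd6 at -1.24, and each of the 5 minus-strand genes lies below 0. mt-Atp6 is shown on at most 12 counts per embryo.

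Relative to ERCC, where the nuclear median rose by 0.89 between the stages of wild-type embryos, mt-Nd2 (1.24 ± 0.27, SE, adjusted p = 0.0072) and mt-Co1 (1.90 ± 0.46, adjusted p = 0.012) were higher at E2.75. So were mt-Tf, the tRNA for phenylalanine (2.10, adjusted p = 0.015), mt-Tv (2.38, adjusted p = 0.0033), mt-Tm (2.82, adjusted p = 0.00037) and mt-Tl2, a tRNA for leucine (2.59, adjusted p = 0.0051). The background was 17.6% higher and 0.337% lower. mt-Tt was lower (-2.28, adjusted p = 0.096), a call lost in 16 of 23 fits that left out 1 embryo. The same 2 mRNAs and 5 tRNAs passed without wild-type replicate 6 of E2.5. mt-Nd6 stood at -0.25 (adjusted p = 0.69) on this scale, so it passed as lower only on the CPM scale. A lower level relative to ERCC was neither shown nor excluded. mt-Tm and mt-Tv were higher on both scales.

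In null embryos, 0 mitochondrial genes passed between the stages on the CPM scale (background 2.08% lower and 1.24% higher), with 1 mRNA or rRNA lower and 1 higher at an unadjusted p under 0.05. Relative to ERCC, mt-Nd2 (1.13, adjusted p = 0.039), mt-Rnr1 (1.82, adjusted p = 0.065), mt-Co1 (1.42, adjusted p = 0.098), mt-Tm (1.56, adjusted p = 0.050), mt-Tv (1.60, adjusted p = 0.073) and mt-Tf (1.69, adjusted p = 0.094) were higher, against 10.6% of all genes higher and 0.209% lower. Both of these counts of 3 fell to 0 without E2.5 null replicate 3 or E2.75 null replicate 3, and that of mRNAs and rRNAs also without E2.75 null replicate 2. In het embryos 0 passed on either scale (background 0.273% lower and 0.00535% higher on the CPM scale, and 0% relative to ERCC), with mt-Nd6 at -0.96 (adjusted p = 0.27) and mt-Tq at -1.52 (adjusted p = 0.21) on the CPM scale. In null embryos mt-Nd6 stood at -0.13 (adjusted p = 0.90). The interaction test given above found 0 mitochondrial genes whose stage effect differed between null and wild-type or null and het embryos.

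The makeup of the mRNA counts also moved with stage, as a description without a test. mt-Cytb made up 20.9% to 45.9% of the mitochondrial mRNA counts (median 36.4%) over the 12 embryos at E2.5 and 18.5% to 32.1% (median 24.2%) over the 11 at E2.75. mt-Co1 made up 2.00% to 5.45% (median 2.92%) and 3.13% to 11.6% (median 6.82%), and mt-Nd2 5.81% to 12.5% (median 9.07%) and 10.1% to 18.98% (median 13.8%). mt-Nd1 varied around 35.8% and 40.3%. Within wild-type embryos, mt-Co1 ran from 2.38% to 5.45% at E2.5 and from 7.68% to 11.6% at E2.75, so the stages did not overlap. The tRNA counts per 1000 mRNA counts were 3.74 to 8.22 in wild-type embryos at E2.5 and 9.20, 10.2 and 12.4 at E2.75. They were 2.88 to 6.44 and 4.43 to 12.4 in null embryos, where the stages overlapped.

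**Figure D5:**
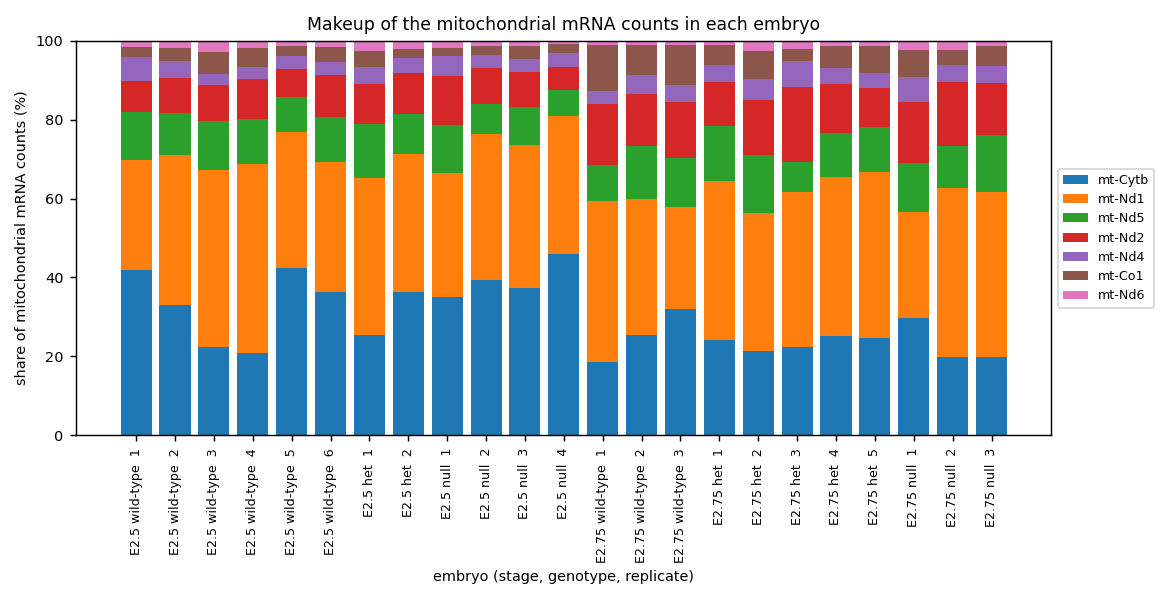
Stacked bars give the share of each mRNA in the mitochondrial mRNA counts (percent, y axis) of each embryo (x axis, labelled by stage, genotype and replicate). mt-Nd1 and mt-Cytb make up most of each bar, and mt-Co1 is at 7.68% to 11.6% in the 3 wild-type embryos at E2.75 and at or under 5.45% in the 12 embryos at E2.5.

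The ChIP-seq part of the study gave a check of a different kind on the same genome. In the deposited lists of regions bound by POU6F1 in embryonic stem cells, 0 peaks lay on the mitochondrial chromosome in any of the 4 lists, which hold 82694, 31348, 24524 and 3630 peaks. In the longest nuclear copy on chromosome 1 there were 0 as well. Whether reads of the mitochondrial chromosome were kept when the lists were made is not given in the sources used here, so a count of 0 says only that the lists hold no peak there.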

How the data were processed

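Single-embryo RNA-seq of 23 embryos was used as the whole-number counts per gene that the authors deposited, not normalized. Per the submitters' processing notes and the paper's methods, reads were trimmed with cutadapt 3.4, aligned to GRCm38 with STAR 2.7.8a and counted by HTSeq 0.11.4, set to intersection-strict and to ignore strand. The line for multiply aligned reads is 0 in every library. Each file holds 55487 genes, 92 ERCC spike-ins and 5 summary lines, and 55141 of the gene identifiers were found in GENCODE vM21. The peak lists were made by the authors with Bowtie2 2.4.4, MACS2 2.2.7.1 and bedtools 2.30.0. They were deposited with a score, a fold enrichment (a ratio) and the -log10 of p and q for each peak, and only peak positions were used here. Columns of other samples numbered 0.

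Groups were read from the labels. The 38 pairs of libraries of 1 group differed by more than sampling noise (chi-square per gene 23.4 to 184), so each embryo is 1 replicate. Same-numbered embryos did not deviate together from their group means (17 pairs, correlation -0.15 to 0.10, median 0.0090), so no pairing by number was used. The 2 het embryos of E2.5 deviate from their mean in opposite directions by construction. This check therefore cannot exclude a shared litter or handling. Counts were tested with the quasi-likelihood test of edgeR 4.0.16 in R 4.3.3, after filterByExpr (minimum count 10) and Benjamini-Hochberg adjustment over all genes tested. The CPM scale used TMM. The ERCC scale used the sum of ERCC counts as library size and no TMM factor. Passing means an adjusted p under 0.1. Where named, the log2 fold change also had to exceed 1 in size. The stages merged, each stage alone and 6 stage and genotype groups were fitted. DESeq2 1.42.0 was an alternative, and the fits were checked on simulated data. Nuclear counts per ERCC count were compared by exact permutation, 3432 assignments for null against het. Nuclear copies were found with BLAST 2.17.0 (51 hits) against GRCm38. Tables used Python 3.11.15 with pandas 2.3.3, SciPy 1.17.1 and NumPy 2.4.6.

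The mitochondrial genes and the lists were chosen with earlier results of these data known. Values by embryo are given for mRNAs and rRNAs that passed in null against het or null against wild-type embryos, with mt-Nd6 and both rRNAs. tRNAs are named where they passed the filter on low counts. Of the 44 nuclear genes, those named passed, or are *Tfam*, *Polrmt*, *Lrpprc*, *Pnpt1* and *Supv3l1*. 1110008L16Rik, *Mtpap* and *Pde12* did not pass and were named after their values were seen. Intervals and floors cover counting error only.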

Additional observations from a re-analysis of the deposited data

Results flagged for a closer look

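Of 72 combinations of gene, scale and group of 4 to 6 embryos, 2 held an embryo far from the rest of its group, where chance gives about 1 in 20. In E2.5 wild-type embryos, mt-Nd4 stood at 5468 CPM in replicate 1, against 2331 CPM in the next embryo, a gap of 0.726 of the range of the 6. In E2.5 null embryos, mt-Nd5 stood at 74.7 counts per 1000 ERCC counts in replicate 4, against 54.6 in the next embryo, a gap of 0.857 of the range of the 4.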

How the results depend on the processing

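Null against het embryos relative to ERCC gave 8 mRNAs and rRNAs as lower under every alternative that kept all embryos, and 6 to 8 when 1 embryo was left out. It gave 6 without E2.5 null replicate 1, E2.5 null replicate 2 or E2.75 het replicate 5. The count of tRNAs moved from 2 to 1 without a filter on low counts and to 1 with a replicate block (mt-Tv, -1.60, adjusted p = 0.073), and to 0 to 2 when 1 embryo was left out. Of 19 embryos, 2 correlated best with an embryo of their own replicate number, and the block changed no other count.

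In null against wild-type embryos on the CPM scale, leaving out the filter gave 1 mRNA lower and 1 higher, and leaving out 1 embryo gave 0 and 0, with 0 to 1 tRNAs (mt-Tv, without E2.75 null replicate 1). Relative to ERCC, the count of mRNAs and rRNAs lower was 1 by DESeq2 and without the filter (mt-Co1), 2 with stage as a covariate (mt-Nd2, -0.60, and mt-Co1, -1.33) and 0 to 1 when 1 embryo was left out (mt-Co1, without E2.5 wild-type replicate 1). The count higher was 1 without the filter (mt-Nd3, on 7 counts in null and 0 in wild-type embryos) and 0 otherwise. The count of tRNAs lower was 6 by DESeq2, 2 with stage as a covariate (mt-Tv and mt-Tm), 1 without E2.75 null replicates 1 and 2 (mt-Tv, -1.83) and 0 to 1 when 1 embryo was left out (without E2.75 null replicate 1).

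With 1 embryo left out, E2.5 null against het relative to ERCC gave 0 to 8 mRNAs and rRNAs and 0 to 2 tRNAs. E2.75 null against het gave 0 to 4 mRNAs and rRNAs. E2.75 null against wild-type gave 0 to 1 mRNAs and rRNAs and 0 to 1 tRNAs on the CPM scale, and 0 to 1 and 0 to 2 relative to ERCC. Between the stages of wild-type embryos on the CPM scale, 1 to 2 mRNAs and rRNAs were lower, 0 to 1 higher, 0 to 3 tRNAs lower and 1 to 3 higher. Relative to ERCC these were 2 to 3 mRNAs and rRNAs higher, 0 to 1 tRNAs lower and 4 to 4 higher. Between the stages of null embryos, 0 to 1 mRNAs and rRNAs were lower on the CPM scale, and 0 to 3 mRNAs and rRNAs and 0 to 3 tRNAs were higher relative to ERCC.

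A sign turned for values near 0 that passed no test. On the CPM scale these were mt-Co1 in null against het (0.089 with stage as a covariate) and mt-Rnr2 (-0.10 without the filter, -0.12 with stage as a covariate). In null against wild-type they were mt-Nd1 (0.040) and mt-Cytb (0.21) without E2.75 null replicates 1 and 2, and mt-Cytb by DESeq2 (0.015) and with RLE size factors (0.015). The causes were not tested. Leaving out E2.75 null replicates 1 and 2, DESeq2 on the ERCC scale, the alternatives of the stage comparisons, and nuclear counts per ERCC count and levels per kilobase without E2.5 wild-type replicate 6 were chosen after seeing the data. The 6 mRNAs inside the longest nuclear copy had 0 to 12 counts per embryo, and the 9 tRNAs with no unique word had 0. Their levels are not read from these counts, and the part of the shared stretches was not tested.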
